A study of Homo sapiens with 6 samples.

Results

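The mRNAs of 8 actin, tubulin and keratin genes were followed in RNA recovered with LARP1 from the small ribosomal subunit fraction of HCT116 cells. The actin genes were ACTB (ENSG00000075624.13; chr7:5527148-5530601) and ACTG1 (ENSG00000184009.9; chr17:81509971-81512799), with loci from RefSeq GRCh38.p14. The alpha-tubulin genes were TUBA1B (ENSG00000123416.15; chr12:49127782-49131395) and TUBA1C (ENSG00000167553.14; chr12:49227926-49274600), and the beta-tubulin genes TUBB (ENSG00000196230.12; chr6:30720352-30725422) and TUBB4B (ENSG00000188229.5; chr9:137241287-137243707). The keratin genes were KRT8 (ENSG00000170421.12; chr12:52897191-52949860) and KRT18 (ENSG00000111057.10; chr12:52948855-52952906). They were taken by Ensembl ID, as abundant cytoskeletal mRNAs of epithelial cells, and are 8 of the 60554 IDs listed for each library. All 8 passed the low-count filter, which 10788 IDs passed. HCT116 cells are an established human line from a colorectal carcinoma, labelled here as colon epithelial cells. Of 6 libraries, 2 held RNA immunoprecipitated with an anti-LARP1 antibody (LARP1 IP), 2 held RNA immunoprecipitated with normal rabbit serum IgG (IgG IP, the background), and 2 held unselected RNA of the same gradient fraction (Input). The labels give no genotype change or drug for any group, and the replicates are labelled biological without saying what was repeated, so the p-values speak of the scatter of these libraries only. The series text calls the fraction free 40S, whereas the sample descriptions write 40S monosome.

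Beta-actin and gamma-actin, encoded by ACTB and ACTG1, are the cytoplasmic actins and polymerise into the filaments of the cell cortex. Alpha-tubulin (TUBA1B, TUBA1C) and beta-tubulin (TUBB, TUBB4B) pair into the dimers that build microtubules, and cells with excess free tubulin destroy tubulin mRNAs as they are translated. Keratin 8 and keratin 18 co-polymerise into the intermediate filaments of simple epithelia such as the colon lining. LARP1 binds RNA and is best known for holding mRNAs that begin with a terminal oligopyrimidine (TOP) motif, a C at the cap followed by an unbroken run of pyrimidines, which ribosomal protein and elongation factor mRNAs carry. Actin, tubulin and keratin mRNAs are not classic members of that class.

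The annotated 5′ ends are shown because LARP1 reads the first bases of an mRNA. Annotated starts were listed for 6 of the 8 genes (RefSeq, GRCh38.p14), 9 starts in all, and each line gives 10 bases before the start and 20 from it, 5′ to 3′. Capitals mark the first base and the pyrimidines that follow it without a break. EEF1A1 and RPS6, which are standard TOP mRNAs, are printed for comparison.
EEF1A1, chr6:73521013-73521042, minus strand: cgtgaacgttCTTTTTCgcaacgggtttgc
RPS6, chr9:19380217-19380246, minus strand: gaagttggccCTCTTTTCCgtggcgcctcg
ACTG1, chr17:81512780-81512809, minus strand: cgcggtcggtCTCagtcgccgctgccagct
TUBB, start 1, chr6:30720342-30720371, plus strand: tcctttctccCTCTCagaaccttcctgccg
TUBB, start 2, chr6:30721628-30721657, plus strand: ctctttcctcAgacccccagccttttgtgc
TUBB4B, chr9:137241277-137241306, plus strand: cgtcggttgtAgcactctgcgcgcccgctc
TUBA1B, chr12:49131376-49131405, minus strand: gccccgccctAgtgcgttacttacctcgac
TUBA1C, start 3, chr12:49265072-49265101, plus strand: ccaccctttcACTacttctcccccggactc
KRT8, chr12:52926450-52926479, minus strand: catgattttcATTCagcaaatgtttgcgga

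The 2 TUBA1C starts not printed both begin with A followed by a purine. Starts were read only on the strand with the same sequence as the mRNA. A C as first base with at least 4 pyrimidines after it was found at 1 of the 9 starts, the first of TUBB. Of all 35116 annotated starts, 4.07% held it. ACTG1 begins with C but has 2 pyrimidines before the first purine, against 6 in EEF1A1 and 8 in RPS6. When the motif was allowed to begin within 10 bases on either side of the start, both TUBB starts and 2 of the 3 TUBA1C starts held it, as did 33.5% of all starts. The KRT8 start listed, with its first base at 52926469 on the minus strand, lies inside the annotated locus, whose 5′ end is 52949860. These are annotated starts. The starts used in these cells were not measured here.

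Library totals ran from 4135463 to 8069554 counts. The 2 genes with the most counts took 26.6% and 21.3% of the LARP1 IP libraries, 70.9% and 71.5% of the IgG IP libraries and 88.7% and 87.9% of the Input libraries. Levels are therefore given as CPM, counts scaled to library size with TMM factors, which sets the bulk of genes equal between libraries. A fold change compares an mRNA with that bulk, so more copies of an mRNA and fewer copies of the other RNAs cannot be told apart. As a share of all counts the 8 mRNAs took 0.433% and 0.530% of the LARP1 IP libraries, 0.190% and 0.166% of the IgG IP libraries and 0.0818% and 0.0747% of the Input libraries. Outside the 2 most abundant genes the shares were 0.590% and 0.673% for the LARP1 IP, 0.653% and 0.581% for the IgG IP and 0.720% and 0.616% for Input, and the groups overlapped. With 2 libraries in each group, 0.33 is the smallest two-sided p that exact permutation allows. The exact p for the share outside these genes was 0.67 in each of the 3 comparisons. Without ACTG1, the other 7 mRNAs took 0.226% and 0.195% of these remaining counts in the LARP1 IP libraries, 0.343% and 0.308% in the IgG IP libraries and 0.401% and 0.311% in the Input libraries, so both LARP1 IP values were below all controls (exact permutation p = 0.33 against each). ACTG1 was the mRNA of the 8 that stood highest over the controls in these same data. Leaving it out therefore partly builds in the lower share of the other 7. On these remaining totals most tested genes were lower in the LARP1 IP. Their median log2 fold change was -1.24 over the IgG IP and -0.923 over Input. All 8 mRNAs stood above that median over the IgG IP, and 5 of the 8 over Input. Levels are not compared between genes, because no transcript lengths were used.

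**Figure D1:**
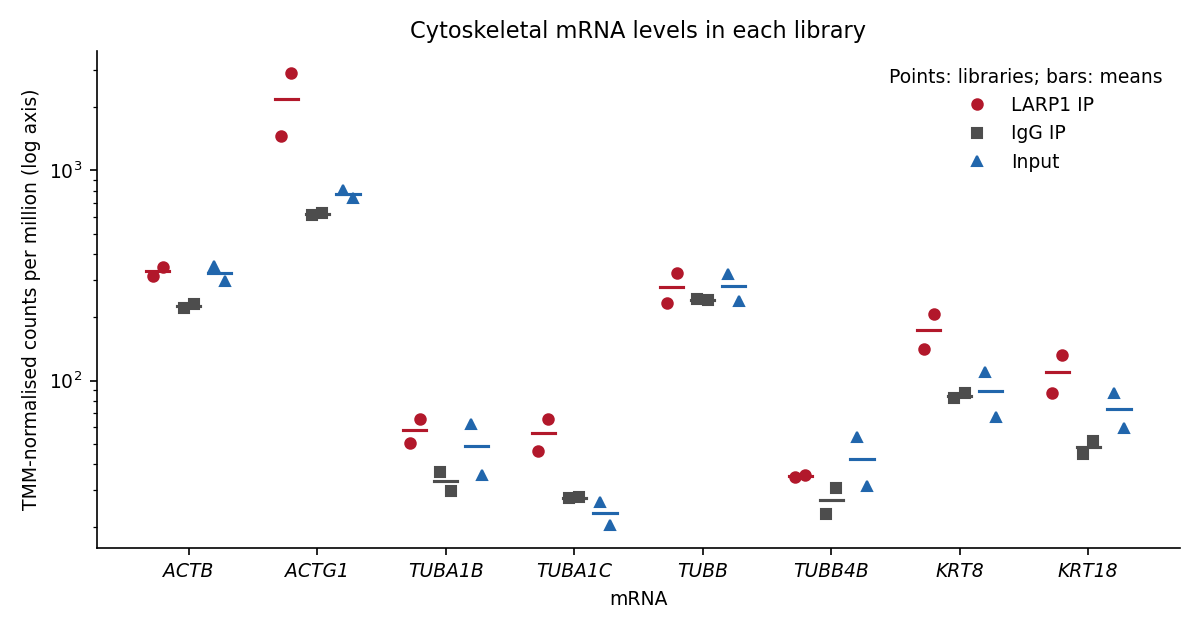
Level of each mRNA in CPM after TMM scaling (log axis) in the 2 LARP1 IP (red circles), 2 IgG IP (grey squares) and 2 Input (blue triangles) libraries, with bars at the means. ACTG1 stands at 1458 and 2895 CPM in the LARP1 IP, above all 4 other libraries, while the TUBB groups overlap.

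ACTG1, for gamma-actin, was the one mRNA of the 8 that rose in the LARP1 IP over the IgG IP, by 3.51-fold (8.54% of all tested genes rose). ACTB stood at 1.46 times its IgG IP level without passing the test. Reads counted to ACTG1 numbered 13896 and 15564 in LARP1 IP libraries, 6658 and 6297 in IgG IP libraries and 2407 and 2375 in Input libraries. This corresponded to 1458 and 2895 CPM in the LARP1 IP, 615 and 625 CPM in the IgG IP and 807 and 737 CPM in Input. Both LARP1 IP libraries were above all 4 others, and they differed from each other far more than the control libraries did. The coefficient of variation was 46.7% in the LARP1 IP, 1.10% in the IgG IP and 6.43% in Input. Counting error alone would give 0.824%, 1.24% and 2.05%, so the IgG IP replicates lay closer together than counting error alone would put them.

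The log2 fold change of ACTG1 over the IgG IP was 1.81 ± 0.43 (SE; 95% interval 0.89 to 2.73; edgeR adjusted p = 0.0161). Over Input it was 1.49 ± 0.42 (0.58 to 2.41, edgeR adjusted p = 0.0552), just short of the threshold of 0.05. DESeq2 on all 6 libraries also called ACTG1 over the IgG IP (1.79, DESeq2 adjusted p = 0.000409). Without LARP1 IP replicate 2 the DESeq2 log2 fold change fell to 1.26, and that call was lost too. The losses listed next are those of the edgeR call. The call over the IgG IP depended on single libraries and was lost without LARP1 IP replicate 2 (log2 fold change 1.24, edgeR adjusted p = 0.0903), without IgG IP replicate 1 (1.8, 0.0559), without Input replicate 2 (1.81, 0.0600) and in a fit of the 4 LARP1 IP and IgG IP libraries alone (1.79, 0.0594). Over Input, leaving out LARP1 IP replicate 2 lowered the value to 0.93 (edgeR adjusted p = 0.326), and leaving out LARP1 IP replicate 1 gave 1.91 (0.0046).

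ACTB had 316 and 348 CPM in the LARP1 IP, 221 and 232 CPM in the IgG IP and 351 and 297 CPM in Input. Its LARP1 IP libraries were above both IgG IP libraries and lay within the range of Input. The log2 fold change was 0.55 ± 0.37 over the IgG IP (95% interval -0.25 to 1.35; edgeR adjusted p = 0.39) and 0.03 ± 0.37 over Input (-0.77 to 0.83; adjusted p = 0.977).

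The ratio of the actins within a library does not depend on how libraries are scaled. ACTG1 over ACTB was 4.62 and 8.33 in LARP1 IP libraries, 2.78 and 2.69 in IgG IP libraries and 2.30 and 2.48 in Input libraries. In each LARP1 IP library the ratio was above that of all 4 controls. The 95% intervals of the LARP1 IP ratios (4.44 to 4.81 and 7.94 to 8.74) cover counting error only, and these replicates differed by more than that. On average it was 2.27 times the IgG IP ratio and 2.60 times the Input ratio (exact permutation p = 0.33, the smallest possible). ACTG1 made up 61.6% and 71.1% of the counts of the 8 mRNAs in LARP1 IP libraries, 47.5% and 47.1% in IgG IP libraries and 44.4% and 49.5% in Input libraries.

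**Figure D2:**
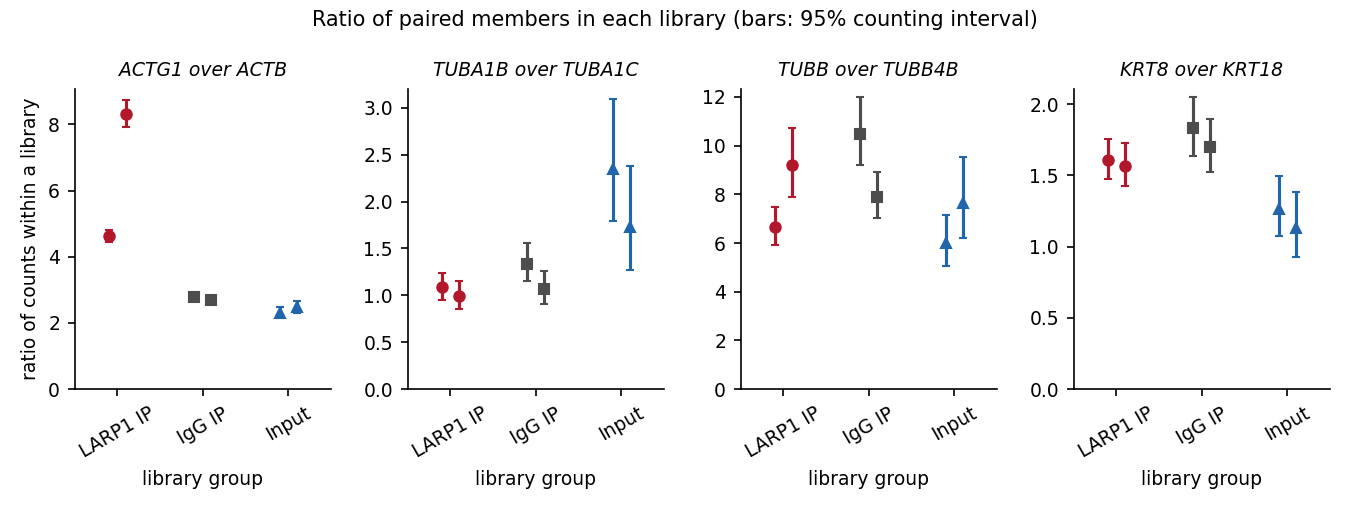
Ratio of counts of 2 like mRNAs within each library, for ACTG1 over ACTB, TUBA1B over TUBA1C, TUBB over TUBB4B and KRT8 over KRT18, with 95% counting intervals as bars and groups in the order LARP1 IP, IgG IP, Input. The actin ratio is highest in the LARP1 IP (4.62 and 8.33), and the TUBA1B over TUBA1C ratio is highest in Input (2.34 and 1.73).

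Both keratins stood about 2 times as high in the LARP1 IP as in the IgG IP, and neither passed the test. KRT8 had 141 and 208 CPM in the LARP1 IP, 82.2 and 87.5 CPM in the IgG IP and 110.0 and 67.4 CPM in Input. KRT18 had 87.5 and 133 CPM in the LARP1 IP, 44.9 and 51.5 CPM in the IgG IP and 86.9 and 59.6 CPM in Input. For both, the LARP1 IP libraries were above all 4 controls, although KRT18 in LARP1 IP replicate 1 and Input replicate 1 nearly met.

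KRT18 had a log2 fold change of 1.19 ± 0.41 over the IgG IP (95% interval 0.32 to 2.06; edgeR adjusted p = 0.0802), a 2.28-fold difference. KRT8 had 1.04 ± 0.41 (0.15 to 1.92; edgeR adjusted p = 0.13), a 2.06-fold difference. Set against Input, KRT18 had 0.59 ± 0.40 and KRT8 had 0.98 ± 0.41 (edgeR adjusted p = 0.442 and 0.195). KRT18 over the IgG IP passed with DESeq2 (1.17, adjusted p = 0.0441) and without LARP1 IP replicate 1 (1.46, edgeR adjusted p = 0.0494).

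KRT8 over KRT18 was 1.61 and 1.57 in LARP1 IP libraries, 1.83 and 1.70 in IgG IP libraries and 1.27 and 1.13 in Input libraries. Both kinds of immunoprecipitate therefore had a higher ratio than Input, by 1.33 times in the LARP1 IP and 1.48 times in the IgG IP (exact permutation p = 0.33 each). The KRT8 and KRT18 loci overlap in RefSeq (chromosome 12, 52897191 to 52949860 and 52948855 to 52952906), and the strand setting of the counting is not given in the sources used here, so reads of the overlap may be shared. Both simple-epithelial keratins were detected in all 6 libraries. They had been taken as abundant mRNAs of epithelial cells, so their detection is no check of the colon epithelial label. Other epithelial markers were not analysed here.

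Among the alpha-tubulins TUBA1C stood higher in the LARP1 IP than in both controls, without passing the test, and TUBA1B less so. TUBA1C had 46.4 and 65.9 CPM in the LARP1 IP, 27.5 and 28.0 CPM in the IgG IP and 26.5 and 20.5 CPM in Input, so the LARP1 IP was above all controls. Its log2 fold change was 1.01 ± 0.39 over the IgG IP (95% interval 0.17 to 1.85; edgeR adjusted p = 0.121) and 1.25 ± 0.40 over Input (0.39 to 2.12; adjusted p = 0.086). Its Input counts were 79 and 66, with exact 95% Poisson intervals of 62.6 to 98.5 and 51.0 to 84.0 that cover counting error only.

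TUBA1B had 50.5 and 65.3 CPM in the LARP1 IP, 36.9 and 29.9 CPM in the IgG IP and 62.1 and 35.4 CPM in Input. Its LARP1 IP libraries were above the IgG IP and overlapped Input, where the replicates were far apart. Its log2 fold change was 0.79 ± 0.41 over the IgG IP (edgeR adjusted p = 0.252), and 0.25 ± 0.41 over Input (adjusted p = 0.788).

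The ratio of TUBA1B to TUBA1C was 1.09 and 0.992 in LARP1 IP libraries, 1.34 and 1.07 in IgG IP libraries and 2.34 and 1.73 in Input libraries. It was lower than in Input in both immunoprecipitates, at 0.516 times the Input ratio in the LARP1 IP and 0.594 times in the IgG IP (exact permutation p = 0.33 each). Between the immunoprecipitates it overlapped (exact permutation p = 0.67). These alpha-tubulin genes encode closely similar proteins, and their nucleotide sequences were not compared here. How reads that map to both were counted is not given in the sources used here, so their split is uncertain.

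The beta-tubulins had the smallest fold changes over the IgG IP of the 8 mRNAs. TUBB had 233 and 325 CPM in the LARP1 IP, 243 and 242 CPM in the IgG IP and 322 and 240.3 CPM in Input, with all groups overlapping. Its log2 fold change was 0.20 ± 0.39 over the IgG IP (95% interval -0.64 to 1.03; edgeR adjusted p = 0.8) and -0.01 ± 0.39 over Input (-0.85 to 0.82; adjusted p = 0.992). One of its annotated starts, printed above, holds the C and 4 pyrimidines; ACTB and KRT18 had no start listed.

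TUBB4B had 34.9 and 35.3 CPM in the LARP1 IP, 23.2 and 30.7 CPM in the IgG IP and 53.7 and 31.4 CPM in Input. Its LARP1 IP libraries were above the IgG IP and within the range of Input. Its log2 fold change was 0.38 ± 0.40 over the IgG IP (edgeR adjusted p = 0.601), and -0.27 ± 0.41 over Input (adjusted p = 0.757). TUBB over TUBB4B, at 6.66 and 9.18 in LARP1 IP libraries, 10.5 and 7.91 in IgG IP libraries and 5.99 and 7.66 in Input libraries, overlapped between the LARP1 IP and either control (exact permutation p = 0.67 each). Over the 12 ratio comparisons (4 pairs, 3 comparisons each) the adjusted exact p was 0.44 to 0.67.

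**Figure D3:**
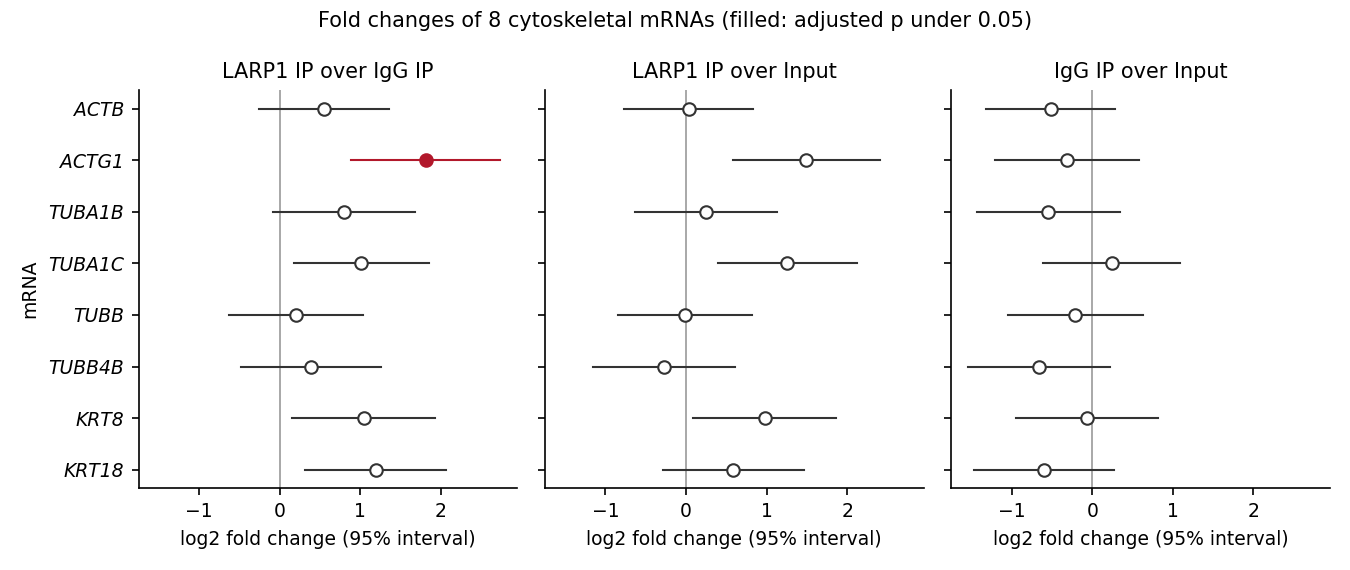
Log2 fold changes of the 8 mRNAs with 95% intervals for the LARP1 IP over the IgG IP, the LARP1 IP over Input and the IgG IP over Input; a filled red point marks an adjusted p under 0.05. ACTG1 over the IgG IP, at 1.81, is the one filled point.

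Read together for the LARP1 IP over the IgG IP, 1 of the 8 mRNAs (12.5%) rose and 0 fell, where 8.54% of the 10788 tested genes rose and 2.29% fell (edgeR; 4 of the 8 had an unadjusted p under 0.05, against 25.1% of genes; DESeq2 called 2 higher, ACTG1 and KRT18). The order of log2 fold changes was ACTG1, KRT18, KRT8, TUBA1C, TUBA1B, ACTB, TUBB4B and TUBB, and neighbours in it differed by less than 1 SE, apart from ACTG1 and KRT18. The 8 had a median log2 fold change of 0.90, against -0.06 over all tested genes. Abundant genes were called more often. Among the 645 genes at or above the mean level of the lowest of the 8, 35% rose and 5.27% fell. Their median was 0.64. That mean level covers all 6 libraries, so genes high only in the LARP1 IP can enter the 645. The shares of them that stood higher, here and over Input, are therefore partly built in. In 7 of the 8, all but TUBB, both LARP1 IP libraries were above both IgG IP libraries, which held for 27.3% of tested genes and for 55.7% of those 645. In 0 of the 8 were both below, against 25.9% of tested genes and 17.7% of the abundant ones.

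For the LARP1 IP over Input, 0 of the 8 passed with edgeR, where 4.63% of tested genes rose and 1.52% fell, while 31.2% of the 645 abundant genes rose and 5.58% fell. At an unadjusted p under 0.05 there were 3 of 8, against 21% of genes, and DESeq2 called 1, ACTG1 (log2 fold change 1.44, adjusted p = 0.0118). The median of the 8 was 0.42, against 0.03 over all tested genes and 0.76 over the abundant ones. Both LARP1 IP libraries were above both Input libraries for ACTG1, TUBA1C, KRT8 and KRT18, 4 of 8, against 28.8% of tested genes and 61.9% of the abundant ones. Both were below both Input libraries for 0 of 8, against 22.8% of tested genes and 14.7% of the abundant ones. The comparisons with the IgG IP and with Input share the LARP1 IP libraries.

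The IgG IP was set against Input to see what the control serum carried over. By edgeR 0 of the 8 passed, 0 had an unadjusted p under 0.05 (6.72% of genes had one), and 0% of tested genes passed. DESeq2 called 0 of the 8, with 20 genes higher and 17 lower over all. Log2 fold changes ran from -0.66 for TUBB4B to 0.24 for TUBA1C, with a median of -0.42 against 0.01 over all tested genes. Both IgG IP libraries were below both Input libraries for ACTB, ACTG1, TUBB4B and KRT18, 4 of 8, against 19.3% of tested genes and 35.2% of the abundant ones. They were above both for TUBA1C, 1 of 8, against 19.2% and 19.5%.

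The sign of most of these values depended on the scaling. A change of scaling shifts all genes of a library together, so positions relative to the median of all genes are nearly fixed in advance. Their steadiness below is therefore no test. Total counts moved the median of all genes to 0.145 for the LARP1 IP over the IgG IP and to 1.75 for the LARP1 IP over Input, whereas leaving the 2 most abundant genes out of the total moved it to -1.24 and -0.923. In that last scaling 7 of the 8 turned below 0 against the IgG IP, and ACTG1 stayed at 0.53 (edgeR adjusted p = 0.149). TUBB then passed as lower (-1.04, edgeR adjusted p = 0.0322). Measured from the median of all genes, ACTG1 stood 1.77 to 1.88 above it and TUBB 0.20 to 0.26 above it against the IgG IP under the 4 scalings, and all 8 stayed above it. Against Input, ACTG1 stood 1.35 to 1.46 above the median and ACTB between -0.021 and 0.001 from it.

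**Figure D4:**
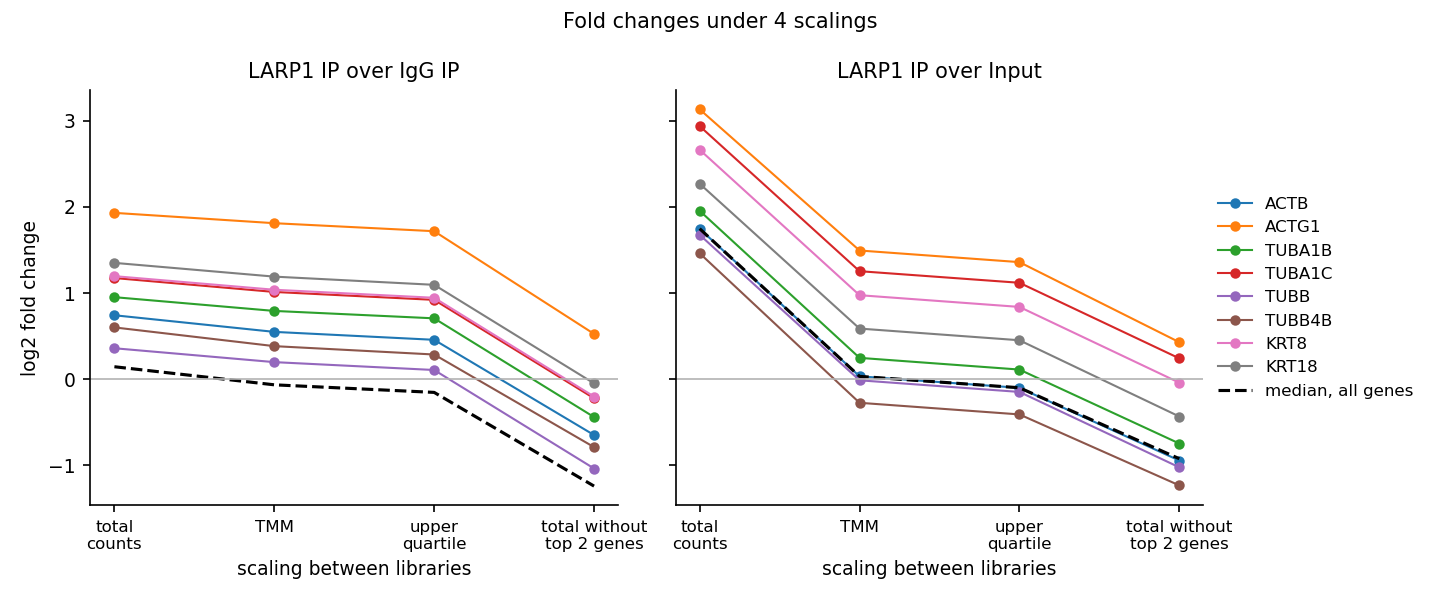
Log2 fold changes of the 8 mRNAs (coloured lines) and the median of all tested genes (dashed) under total counts, TMM, upper-quartile factors and totals that leave out the 2 most abundant genes, for the LARP1 IP over the IgG IP and over Input. The lines run nearly parallel to the dashed median because a change of scaling shifts all genes together. ACTG1 is above the other 7 in both panels.

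Set against ACTB within each library, which removes scaling, ACTG1, KRT18, KRT8 and TUBA1C were higher in the LARP1 IP than in the IgG IP, by 2.27, 1.53, 1.38 and 1.36 times, with no overlap between the groups. TUBB was lower relative to ACTB, at 0.774 times, also with no overlap, and TUBA1B and TUBB4B overlapped. ACTB itself stood at 1.46 times its IgG IP level, so these values depend on that reference. The share of all tested genes without overlap on this measure was not computed. Relative to ACTB in Input, the LARP1 IP held 2.60 times the ACTG1, 2.31 times the TUBA1C, 1.94 times the KRT8 and 1.46 times the KRT18. The IgG IP held 1.145 times the ACTG1, 1.698 times the TUBA1C, 1.405 times the KRT8 and 0.953 times the KRT18 of Input. Of these, all but KRT18 were without overlap, so part of the difference from Input was also present with the control serum.

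The mean pattern of the 8 over the 6 libraries, as log2 CPM centred per gene, was most closely matched by ENSG00000126457.21 (Euclidean distance 0.12) and ENSG00000117122.13 (0.147), among the 3065 genes whose mean reached 10 CPM. The 8 themselves lay 0.366 (KRT18) to 1.11 (ACTG1) from their mean, at ranks 26 and 900 of the 3065 in closeness. Profiles of the 8 correlated with each other at 0.103 (TUBA1C with TUBB4B) to 0.959 (TUBA1C with KRT8). The mean is therefore not a pattern that all 8 follow closely. ENSG00000126457.21 had 39.2 and 52.8 CPM in the LARP1 IP, 24.1 and 25.8 CPM in the IgG IP and 33.9 and 25.5 CPM in Input. It is named by ID because the files pair no other ID with a symbol.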

How the data were processed

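RNA immunoprecipitation sequencing was deposited as raw read counts per Ensembl gene ID, 1 file per library. Per the submitters' processing notes, the authors' tools included Subread 1.20.6 (featureCounts), TopHat2 2.1.1, Bowtie2 and CASAVA 1.8, and the build was GRCh38. Per the labels' protocols, libraries were made with a TruSeq stranded kit, leaving out its poly(A) step. The sources used here do not give the annotation release, the strand setting or the treatment of multi-mapping reads, so genes with processed or near-identical copies, as actins, tubulins and keratins have, may have lost or shared reads.

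Counts were analysed in R 4.3.3 with edgeR 4.0.16: filterByExpr (minimum count 10), TMM, and 1 quasi-likelihood fit of all 6 libraries (3 residual degrees of freedom, no term besides group). The Benjamini-Hochberg adjusted threshold was 0.05 over all genes tested. SEs were obtained from log2 fold changes and their F statistics, and a 95% interval uses the fit's t distribution. DESeq2 1.42.0, other scalings, filters, sample sets, a replicate block and fits without each library were alternatives. Ratio intervals are exact binomial. Groups came from sample titles, and replicate libraries differed by more than sampling noise (chi-square per degree of freedom 5.70 to 33.5). The 8 symbols came with the selection of genes. Of the 60554 IDs, 0 matched the RefSeq table used here, so the planned lists of other cytoskeletal, TOP, glycolytic and chaperone genes, the cell type markers and the pseudogenes were not run. Named genes are the 8 plus, by Ensembl ID, the 2 nearest patterns; EEF1A1 and RPS6 are named for their start sequences only. Members and lists were chosen with earlier results of these data known.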

Additional observations from a re-analysis of the deposited data

How the results depend on the processing

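Counts of the 8 mRNAs called in the LARP1 IP over the IgG IP (1 higher, 0 lower) became 2 higher with DESeq2 and with total counts, 0 higher with only the 4 libraries compared, and 0 higher and 1 lower when totals left out the 2 most abundant genes, where the median log2 fold change of the 8 was -0.33 in place of 0.90. Over Input (0 and 0), 1 was higher with DESeq2, without a low-count filter or with only 4 libraries, and 8 with total counts, where the median was 2.11 in place of 0.42. The median was -0.59 without the 2 most abundant genes. For the IgG IP over Input (0 and 0), 6 were higher with total counts, with a median of 1.10 in place of -0.42. Leaving out each library in turn gave 0 to 2 higher over the IgG IP and 0 to 1 over Input, with edgeR and with DESeq2, the DESeq2 runs being chosen after seeing the data; a library left alone in its group was taken to have the spread of the other groups. Values that changed sign with a call were TUBB in the LARP1 IP over the IgG IP without the 2 most abundant genes (-1.04) and, with total counts, TUBB and TUBB4B over Input (1.68 and 1.46) and ACTB, ACTG1, TUBB, KRT8 and KRT18 in the IgG IP over Input (1.0, 1.2, 1.32, 1.47 and 0.92). Those follow the shift of all genes that the scaling makes; for other changes the cause was not tested. The mean share of the 8 moved from 0.481% to 0.631% (LARP1 IP), 0.178% to 0.617% (IgG IP) and 0.0782% to 0.668% (Input) when the 2 most abundant genes left the total. With replicate number added to the fit as a replicate block, 4 were higher over the IgG IP (ACTG1, KRT18, KRT8 and TUBA1C) and 2 over Input (ACTG1 and TUBA1C); the labels name no shared batch, and same-numbered libraries' deviations correlated at 0.519, 0.134 and 0.271 over genes (LARP1 IP with IgG IP, LARP1 IP with Input, IgG IP with Input). Over all genes, the alternatives gave 356 to 1526 higher (921 reported) and 56 to 3992 lower (247) over the IgG IP, 0 to 6550 (499) and 0 to 1122 (164) over Input, and 0 to 5808 (0) and 0 to 35 (0) for the IgG IP over Input. Without Input replicate 1 or 2, edgeR called 0 genes over Input in the LARP1 IP (1872 and 1189 at an unadjusted p under 0.05), where DESeq2 called 355 and 247 higher. Outside the 2 most abundant genes Input held the fewest counts (752862 and 778680). Counting error for the 8 mRNAs was largest in Input, from 2.05% for ACTG1 to 11.7% for TUBA1C. For each of the 8 it was still below the coefficient of variation between the Input replicates, as for TUBA1C (18.1%).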
